A study of Mus musculus with 12 samples.

Results

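The GIMAP family (GTPases of immunity-associated proteins) comprises 8 genes in the mouse count table, Gimap1, Gimap3, Gimap4, Gimap5, Gimap6, Gimap7, Gimap8 and Gimap9, and these 8 of 31053 genes were examined here across the leukocytes of MC38 tumors and within tumor-infiltrating CD8+ T cells. The members were chosen from the gene symbols of the table, and the family and the cell classes in which it is described were chosen with earlier results of these data known, so the levels by class are a description and carry no test. The data are scRNA-Seq libraries, in which each transcript captured from a cell is counted once through its unique molecular identifier (UMI). They come from CD45+ cells, that is leukocytes, of 12 C57BL/6 mice that carried MC38 tumors, a mouse colon carcinoma line. The tumors were taken on day 17, and the 4 groups of 3 mice had received vehicle for 7 days, vehicle for 16 days, or the EZH2 inhibitor PF-06821497 (EZH2i) at 100 mg/kg daily for 7 or for 16 days.

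All barcodes were deposited in 1 matrix and carry a library number from 1 to 12 that no label ties to a mouse or a group. The matrix thus counts as 1 sample, EZH2i was not compared with vehicle, and values are given by library without a p-value. Of 140639 barcodes, 128912 passed the study's limits. The UMIs per library ranged from 21649947 to 158760328. Cells were assigned to classes by gates on lineage UMIs, which gave 3508 CD8+ T cells, 708 CD4+ T cells without Foxp3, 34 Foxp3+ T cells, 207 NK cells, 389 B cells and 92153 myeloid cells, of which 89261 were macrophages or monocytes, 2336 neutrophils and 556 dendritic cells. Of markers that the gates did not use, 6 of 6 T cell markers were highest in a T cell class, 5 of 5 NK markers in NK cells, 6 of 6 B cell markers in B cells and 5 of 6 macrophage markers in macrophages. For CD8+ T cells the count was 2 of 3, as Gzmb was higher in NK cells, and for CD4+ T cells 2 of 3, as Icos was higher in Foxp3+ T cells. Library 4 held 8 CD8+ T cells and gives no library value in T cell comparisons, which ask for 20 cells. Library 8 stood apart from the rest in the family's level, and the main ratios are also given without it. Some other values, among them those of the genes of T cell quiescence below, are given over all libraries only.

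GIMAP proteins are GTP-binding proteins of vertebrate lymphocytes, several of which are anchored in intracellular membranes. The family is best known for a role in the survival and homeostasis of T cells. Gimap1 is needed for mature T and B lymphocytes. Gimap5 is the gene mutated in the lymphopenic BB rat and in mice with the sphinx allele, and is linked to lysosomes and to the survival of naive T cells. Gimap3 is a close paralog of Gimap5. Gimap4 is linked to T cell death, and Gimap6 binds the autophagy protein GABARAPL2. Gimap8 encodes the largest protein of the family, with more than 1 GTPase domain.

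The 8 genes lie side by side on chromosome 6. By their identifiers, all 8 were matched to GENCODE M21 on GRCm38, where they span chr6:48647234-48770851, 124 kb that hold 13 annotated genes. From low to high coordinate the order is Gimap8, Gimap9, Gimap4, Gimap6, Gimap7, Gimap1, Gimap5 and Gimap3, with Gimap6 and Gimap3 on the minus strand and the others on the plus strand. All 8 are annotated as protein-coding genes. The largest in exonic bases is Gimap5 (ENSMUSG00000043505, chr6:48746197-48754210, 4149 bases), followed by Gimap8 (ENSMUSG00000064262, chr6:48647234-48660875, 3700 bases), Gimap6 (ENSMUSG00000047867, chr6:48701582-48708225, 3496 bases) and Gimap1 (ENSMUSG00000090019, chr6:48739054-48743795, 3073 bases). Gimap3 (ENSMUSG00000039264, chr6:48764464-48770851) has 2577, Gimap7 (ENSMUSG00000043931, chr6:48718621-48724636) 2325, Gimap4 (ENSMUSG00000054435, chr6:48684549-48692060) 1837 and Gimap9 (ENSMUSG00000051124, chr6:48676129-48679114) 1642 exonic bases. The annotated gene Gm28053 (chr6:48718607-48752644) overlaps Gimap7, Gimap1 and Gimap5 on the same strand. It shares 3.48, 6.44 and 3.69% of their exonic bases, but 0 of the last 500 exonic bases at the 3' end, where this assay reads. Gm28053 itself had 25 UMIs in CD8+ T cells. Of the 28 pairs of members, only Gimap3 and Gimap5 share stretches of 50 identical transcript bases. In 0 pairs does such a stretch lie within the last 500 bases of both genes. A match between the 3' end of 1 gene and a part further upstream in the other was not looked for. Mixing of reads between Gimap3 and Gimap5 was therefore not tested.

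The promoters of 3 members are shown because these genes took the largest share of the family in CD8+ T cells (Gimap4), in B cells (Gimap6), or differed most between lymphocyte classes (Gimap7). The sequences are from RefSeq on GRCm38.p6, 300 bases each, 5' to 3' on the strand of the gene, and capitals mark matches on either strand to GGAAGT (a core of ETS factors), TGTGGT (RUNX), CACCC (KLF) or CTTTGA (TCF/LEF).
Gimap4 promoter, chr6:48684328-48684627, plus strand: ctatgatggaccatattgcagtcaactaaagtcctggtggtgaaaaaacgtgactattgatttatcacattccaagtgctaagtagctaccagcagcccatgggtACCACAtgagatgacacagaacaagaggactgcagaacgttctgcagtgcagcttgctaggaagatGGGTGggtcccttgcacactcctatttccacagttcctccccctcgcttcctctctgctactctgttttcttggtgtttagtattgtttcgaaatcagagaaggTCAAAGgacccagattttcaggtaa
Gimap6 promoter, chr6:48708195-48708494, minus strand: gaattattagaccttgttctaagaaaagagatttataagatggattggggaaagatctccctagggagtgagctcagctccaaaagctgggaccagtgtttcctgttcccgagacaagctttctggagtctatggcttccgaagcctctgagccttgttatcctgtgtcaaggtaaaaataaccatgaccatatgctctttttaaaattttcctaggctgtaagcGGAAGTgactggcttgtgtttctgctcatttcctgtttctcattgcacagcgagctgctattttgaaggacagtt
Gimap7 promoter, chr6:48718371-48718670, plus strand: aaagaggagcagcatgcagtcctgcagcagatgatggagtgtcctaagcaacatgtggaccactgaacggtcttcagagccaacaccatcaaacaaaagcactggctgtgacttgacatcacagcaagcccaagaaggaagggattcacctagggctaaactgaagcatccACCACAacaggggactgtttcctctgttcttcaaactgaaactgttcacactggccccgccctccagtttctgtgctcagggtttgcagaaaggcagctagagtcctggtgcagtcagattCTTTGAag
Over the 9 listed promoters of the family (Gimap8 has 2), the ETS letters were found in those of 4 members (Gimap1, Gimap5, Gimap6 and Gimap9), and 23.8% of all 32851 listed promoters hold them. The RUNX letters were found in 3 (Gimap1, Gimap4 and Gimap7; 16.8% of all promoters), the TCF/LEF letters in 2 (Gimap4 and Gimap7; 16.0%) and the KLF letters in 5 (57.5%). These matches are a description of the letters in these windows and no sign of binding.

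The family was a lymphocyte family in these tumors, with pooled levels highest in T and NK cells, lower in B cells and far below in the myeloid classes. The order among the T and NK classes is one of the pool and changed with the libraries and strata used. Summed over the 8 members, CD4+ T cells had 2038 counts per 1000000 UMIs (CPM; exact Poisson 95% interval 1988 to 2088, counting error only, as for all intervals), Foxp3+ T cells 1733 (1561 to 1919), CD8+ T cells 1640 (1619 to 1662), NK cells 1368 (1288 to 1451) and B cells 772 (711 to 836). Macrophages and monocytes had 6.23 CPM, neutrophils 11.9 and dendritic cells 11.4. Between libraries the same classes varied by far more than counting error. In CD8+ T cells the family ranged from 758 CPM in library 6 to 3172 in library 8 (median 1583 over 11 libraries), in CD4+ T cells from 772 to 2898 (median 1292 over 9 libraries), in B cells from 417 to 1098 (median 699 over 5) and in macrophages from 2.02 to 22.8 (median 2.96 over 12). The ranges of CD8+ T, CD4+ T and B cells overlapped, and the neighbours CD4+ T, Foxp3+ T, CD8+ T and NK cells are not separated beyond the spread between libraries.

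**Figure D1:**
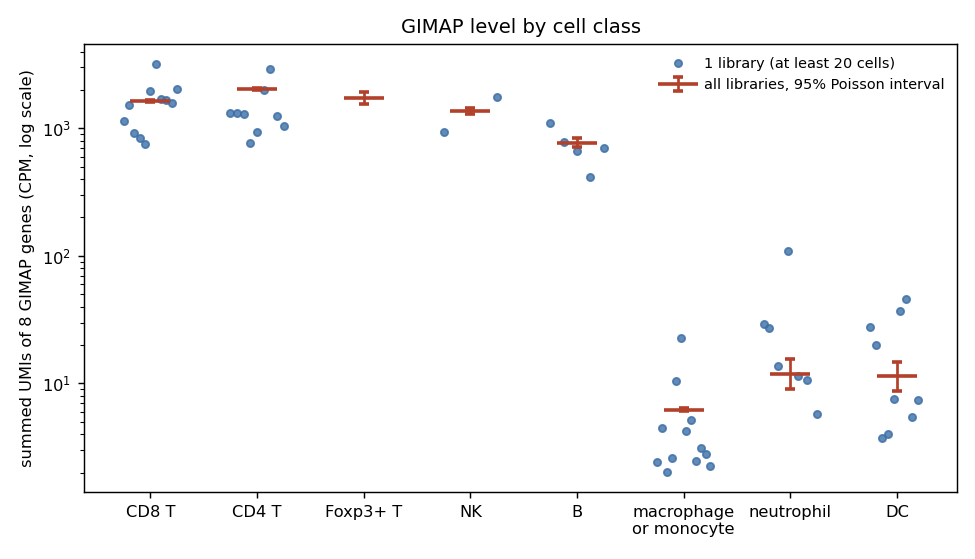
Summed CPM of the 8 GIMAP genes (log scale) in each class, with 1 point per library that holds at least 20 cells of the class and a line for the pooled value with its exact Poisson 95% interval; Foxp3+ T cells have no library with 20 cells, and libraries at 0 are not drawn. All T, NK and B cell points lie between 417 and 3172, the macrophage points lie between 2.02 and 22.8, and the highest neutrophil point is 109.

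At the level of cells, 90.0% of CD8+ T cells carried at least 1 GIMAP UMI (exact binomial 95% interval 89.0 to 91.0%), as did 92.4% of CD4+ T cells, 92.8% of NK cells, 63.8% of B cells and 3.26% of macrophages. B cells were shallower, with a median of 1317 UMIs against 3183.5 in CD8+ T cells and 5093 in macrophages. After each cell was thinned to 500 UMIs, the shares were 50.5% of CD8+ T cells, 56.8% of CD4+ T cells, 54.6% of NK cells, 31.4% of B cells and 0.499% of macrophages, so the order of B cells below the T and NK cells remained at equal depth. Without thinning, and so at unequal depth, a CD8+ T cell had a median of 3 different members, a CD4+ T cell 4, an NK cell 3 and a B cell 1. After thinning to 500 UMIs, 20.2% of CD8+ T cells, 26.0% of CD4+ T cells, 17.9% of NK cells and 6.68% of B cells held at least 2 members.

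In CD8+ T cells the members differed widely in level. CPM values of a 3' assay count transcripts and need no division by length, so members can be set beside each other on this scale. Gimap4 was highest (405 CPM, 24.7% of the family's UMIs), followed by Gimap3 (323), Gimap6 (238), Gimap1 (223), Gimap7 (164), Gimap5 (132), Gimap9 (87.8) and Gimap8 (66.8). Each of the 8 members was highest in library 8. Without library 8, Gimap1 stood above Gimap6, with 2050 against 1873 UMIs in CD8+ T cells. By library, Gimap4 had 300, 395, 251, 243 and 232 CPM in libraries 1, 2, 3, 5 and 6, and 477, 732, 358, 344, 369 and 491 CPM in libraries 7 to 12. Gimap6 had 124, 221, 88.4, 94.2 and 79.7 CPM in the first 5 of these and 277, 530, 250, 255, 221 and 343 CPM in the other 6. Library 8 was high and library 6 low for both, and Gimap6 spread over a wider fold range than Gimap4. Gimap7 had 107, 130, 93.2, 45.0 and 64.5 CPM in libraries 1, 2, 3, 5 and 6, and 229, 354, 170, 169 and 181 CPM in libraries 7, 8, 9, 11 and 12, with library 10 below each of those last 5 libraries. Gimap3 ranged from 148 CPM in library 3 to 650 in library 8 (median 312), Gimap1 from 89.9 to 393 (237), Gimap5 from 65.0 to 244 (107), Gimap9 from 32.5 to 160 (101) and Gimap8 from 34.7 to 109 (61.3). The lowest library was library 6 for 6 of the 8 members, library 3 for Gimap3 and library 5 for Gimap7.

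Members were found in the same cells somewhat more often than their separate shares of cells would give. Over CD8+ T cells, within strata of library and depth bin, all 28 pairs of members had an odds ratio above 1 for detection in the same cell. The values ran from 1.14 (Gimap7 and Gimap8) through a median of 1.36 to 1.74 (Gimap4 and Gimap6). Depth still varies within a bin, which can raise the odds ratio of any pair, and other pairs of genes were not set beside these. Whether the values are particular to the family was not tested. The family level fell in the deepest cells, from 1815 CPM in CD8+ T cells with 4000 to 8000 UMIs to 1297 CPM at 8000 to 16000 and 1052 CPM at 16000 to 32000. The share with Mki67, the proliferation marker, was 24.3, 52.8 and 82.1% in these bins. Within a bin, libraries pooled, cells with Mki67 were lower than cells without, with 1277 against 1992 CPM at 4000 to 8000 UMIs and 999 against 1650 CPM at 8000 to 16000. The comparisons within CD8+ T cells below were therefore made within bins of depth and library.

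T cells of the 3 classes together had 271 times the GIMAP CPM of myeloid cells (1712 against 6.32 CPM), and T cells were higher in 11 of 11 libraries, by 33.6- to 878-fold. All 8 members were at least 2-fold higher, from 124-fold for Gimap9 to 597-fold for Gimap7. The value of Gimap7 was 1215 without library 6 and 404 without library 8, and that of Gimap9 146 and 91.5. Across all 14730 genes with enough UMIs, 18.8% were at least 2-fold higher in T cells, and the median ratio of all genes was 1.05. Myeloid cells were gated to hold 0 T cell UMIs, and with that limit lifted the ratio was 67.0. Without library 6, whose macrophages had the highest family level, the ratio was 434. Without library 8 it was 196. The level in macrophages can be set beside that of Trac, the T cell receptor constant region that macrophages lack: Trac had 1.28 CPM in macrophages against 573 in T cells, a 449-fold difference. Within macrophages Gimap9 made up 11.4% of the family's UMIs, against 5.35% in CD8+ T cells, and Gimap7 4.34% against 10.0%. By library the share of Gimap9 was higher in macrophages than in CD8+ T cells in 11 of 11 libraries, and that of Gimap7 in 0 of 11. The same counts held for Gimap6 (11 of 11, median 21.0% against 14.3%) and Gimap4 (0 of 11, median 19.5% against 24.5%). The contrast of Gimap9 was small in library 6, which held 1576 of the macrophage GIMAP UMIs: Gimap9 made up 5.20% there (4.16 to 6.42%), against 4.29% in its CD8+ T cells. In the other 10 of these libraries the share of Gimap9 in macrophages was 8.30 to 34.2%. What part of the macrophage UMIs is free RNA was not tested.

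NK cells had a family level near that of CD8+ T cells and a different make-up. The ratio of CD8+ T to NK cells was 1.20 over all libraries (1.13 to 1.28), and 1.09 within strata of library and depth. Without library 8 the pooled ratio turned to 0.927, and that within strata was 1.05. The direction also differed between libraries 1 to 6 (0.833 pooled, 0.949 within strata) and libraries 7 to 12 (1.55 and 1.21). The 2 libraries with 20 cells of both classes differed in direction, with 836 CPM in CD8+ T and 943 in NK cells in library 5, and 1945 and 1767 in library 7. Gimap7 stood out among the members, with 164 CPM in CD8+ T cells and 70.9 in NK cells. Its ratio of 2.32 (1.78 to 3.07) was 1.89 within strata, 1.63 to 2.65 when each library in turn was left out, and above 1 in both libraries (1.95 and 3.05). The NK side rests on 57 UMIs of Gimap7 over all libraries, and on 80 NK cells in library 5 and 24 in library 7. Gimap3 was also higher in CD8+ T cells (323 against 185 CPM, ratio 1.74, within strata 1.58), and Gimap5 was lower (132 against 172 CPM, ratio 0.767, within strata 0.684), in both libraries each. Summed, this paralog pair had a ratio of 1.27. The other 5 members had pooled ratios from 1.02 to 1.11, and without library 8 all 5 turned below 1, from 0.783 (Gimap6) to 0.903 (Gimap8). Only Gimap7 passed 2-fold, 1 of 8 members, beside 10.6% of 9751 genes. Without library 8, 0 of 8 passed, and the share of all genes was not computed there.

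B cells had the lowest level of the lymphocytes and a different leading member. CD8+ T cells had 2.13 times the family CPM of B cells (1.96 to 2.31), 2.25 within strata of library and depth, and were higher in 5 of 5 libraries, by 1.03- to 2.37-fold (median 1.82). In B cells the family had 1098 CPM in library 1, 783 in library 2, 660 in library 5, 417 in library 6 and 699 in library 10, and CD8+ T cells of the same libraries had 1136, 1516, 836, 758 and 1656 CPM. Library 1 alone had nearly equal levels in both classes. Gimap7 (4.91-fold), Gimap4 (3.38), Gimap3 (3.22), Gimap9 (2.73) and Gimap5 (2.09) were at least 2-fold higher in CD8+ T cells. That is 5 of 8 members beside 18.6% of 9821 genes, with a median ratio of 2.39 over the members and 1.14 over all genes. Gimap8 (1.73) and Gimap1 (1.65) differed by less, and Gimap6 did not differ beyond counting error in the pool, with 238 CPM in CD8+ T and 249 in B cells (ratio 0.958, 0.828 to 1.11; 1.08 within strata). Library 8 bears on this value: Gimap6 was higher in CD8+ T cells in 1 of 5 libraries (0.364 to 1.10, median 0.668), and without library 8 its ratio was 0.718 in the pool and 1.04 within strata. Without library 8, 4 members passed 2-fold, and Gimap5 (1.63) no longer did. The share of all genes was not computed without library 8. Gimap6 was the main member of B cells, with 32.2% of the family's UMIs (28.5 to 36.1%) against 14.5% in CD8+ T cells (14.1 to 15.0%). Library 10 contributed 180 of the 389 B cells, and Gimap6 made up 33.2% of the family there. Trac had 2.58 CPM in the B cells. Their median mitochondrial percent was 6.73%, against 4.23% in CD8+ T cells, and its part in the difference was not tested. The B cell class held 10 barcodes with Jchain, which is high in antibody-secreting cells, and a few very deep barcodes; without those and cells of 8000 UMIs or more, the family ratio was 1.77 and that of Gimap6 0.778. The family ratio was also 3.28 at a gate of 1 lineage UMI, 6.19 at a mitochondrial limit of 5% and 4.34 as UMIs per cell, so B cells remained the lower class while the size of the difference depends on which B cells are counted and how.

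**Figure D2:**
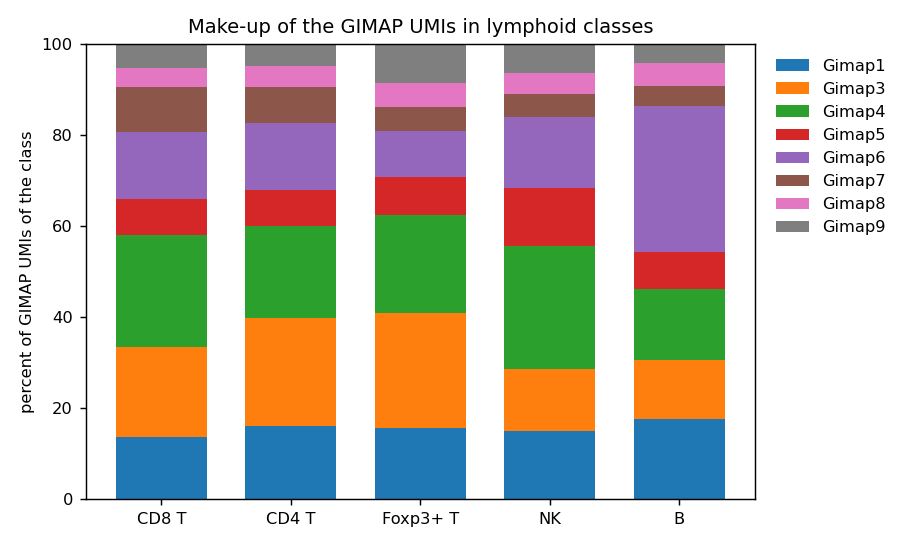
Share of each of the 8 GIMAP genes in the family's UMIs (percent, stacked bars that sum to 100, all libraries pooled) in CD8+ T, CD4+ T, Foxp3+ T, NK and B cells. Gimap6 takes 32.2% in B cells and 14.5% in CD8+ T cells, Gimap4 takes 24.7% in CD8+ T and 27.1% in NK cells, and Gimap7 takes 10.0% in CD8+ T, 5.19% in NK and 4.34% in B cells.

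CD4+ T cells had a higher GIMAP CPM than CD8+ T cells when all libraries were pooled, and a slightly lower one within strata of library and depth. The pooled ratio was 1.24 (1.21 to 1.28), the ratio within strata of library and depth was 0.907 (0.882 to 0.934), and CD4+ T cells were higher in 4 of 9 libraries (0.653 to 1.41). Library 8, the library with the highest family level, held 222 of the 708 CD4+ T cells (31.4%) and 436 of the 3508 CD8+ T cells. By library, CD4+ T cells had 1322, 1322, 1292, 772 and 936 CPM in libraries 1, 2, 3, 5 and 6, and 2011, 2898, 1254 and 1034 CPM in libraries 7, 8, 9 and 11. CD4+ T cells were the higher of the pair in libraries 1, 3, 6 and 7, and without library 8 the pooled ratio was 1.06. Within strata, Gimap7 (0.667) and Gimap4 (0.786) were lower in CD4+ T cells, in 8 and 6 of 9 libraries, Gimap6 was at 0.853, and Gimap8 (1.12), Gimap1 (1.08) and Gimap3 (1.07) were at or above 1. In the pool, 0 of 8 members passed 2-fold, beside 3.42% of 10013 genes. The 34 Foxp3+ T cells, 13 of them from library 8, showed a pooled ratio to CD8+ T cells of 1.06 and one of 0.874 (0.787 to 0.970) within strata. Without library 8, 21 cells remained, with a pooled ratio of 0.808 and one of 0.996 within strata, so the pooled direction turned and the difference within strata was near none. Gimap7 (0.469) and Gimap6 (0.547) were lower in Foxp3+ T cells within strata, and Gimap9 was at 1.40, with an interval that includes 1. The value of Gimap7 stood on 20 UMIs in the 34 cells, and without library 8 it turned to 1.33 within strata (12 UMIs), and that of Gimap6 was 0.830. Gimap7 was below its level in CD8+ T cells in NK, B and CD4+ T cells within strata, also without library 8 (CD8+ T to NK cells 1.76, CD8+ T to B cells 2.97, CD4+ T to CD8+ T cells 0.542).

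**Figure D3:**
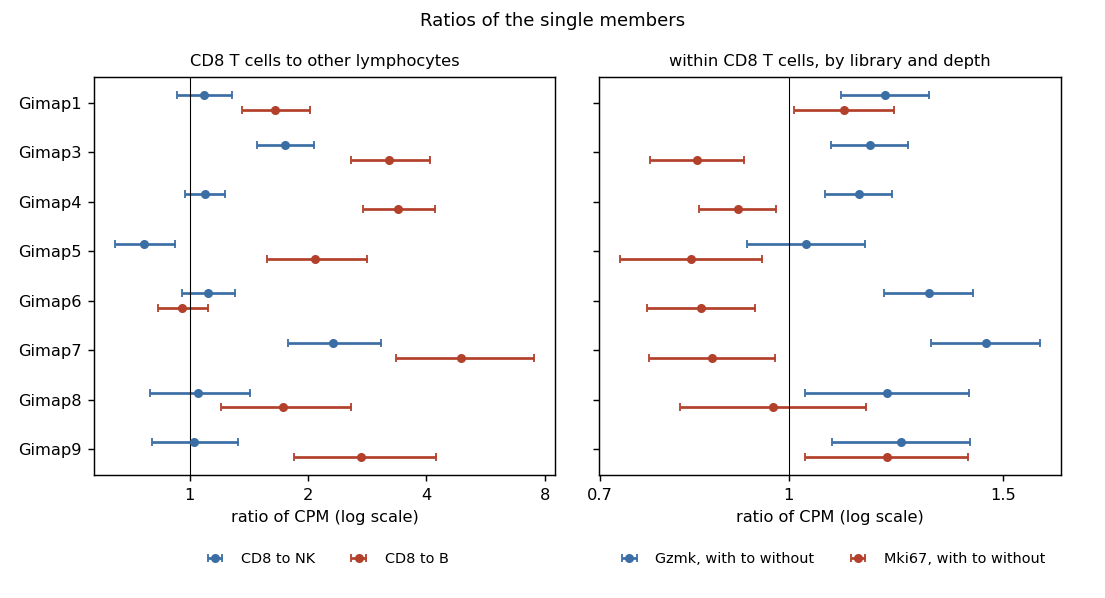
Ratio of CPM for each of the 8 GIMAP genes (log scale, points with 95% intervals for counting error). The left panel sets CD8+ T cells against NK and against B cells over all libraries, and the right panel sets CD8+ T cells with Gzmk or Mki67 against those without, within strata of library and depth. Gimap7 is the farthest to the right in both comparisons on the left (2.32 and 4.91) and for Gzmk on the right (1.45).

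Within CD8+ T cells the family was examined by detection of 4 genes that mark states: Tcf7, a factor of stem-like and memory T cells, Gzmk, a granzyme of an effector memory state, Havcr2 (TIM-3), a marker of exhausted cells, and Mki67. In pooled CPM, the differences were large. Cells with Gzmk had 2416 CPM against 1197 in cells without (ratio 2.02), cells with Tcf7 had 2120 against 1569 (1.35), cells with Havcr2 1215 against 1816 (0.669) and cells with Mki67 1109 against 1877 (0.591). Cells with a UMI of any of these genes are deeper, and libraries contribute to them unequally. Library 8 alone had Gzmk in 83.3% of its CD8+ T cells, against 9.13% in library 6.

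Held within strata of library and depth, the differences shrank and 1 kept a single direction in every library. Cells with Gzmk had 1.20 times the family CPM of cells without (1.17 to 1.24), and were higher in 10 of 10 libraries, by 1.05- to 1.52-fold within bins of depth. The library ratios were 1.36, 1.05, 1.41, 1.32 and 1.52 in libraries 1, 2, 3, 5 and 6, and 1.15, 1.29, 1.09, 1.12 and 1.09 in libraries 7, 8, 9, 11 and 12, and the ratio within strata without library 8 was 1.17. For Tcf7 the ratio was 1.04 (1.00 to 1.08; higher in 5 of 8 libraries, 0.864 to 1.83), for Havcr2 0.922 (0.891 to 0.954; higher in 3 of 8, 0.693 to 1.20) and for Mki67 0.921 (0.887 to 0.956; higher in 4 of 8, 0.809 to 1.14). The last 3 intervals cover counting error only, and the libraries pointed both ways. Library 8 set the place of Tcf7: without it the ratio for Tcf7 was 1.17, the same as for Gzmk, with all members but Gimap7 above 1 (Gimap6 1.42, Gimap3 1.25 and Gimap7 0.904). Without library 8 the ratios for Havcr2 and Mki67 were 0.851 and 0.948. In 4 of 4 comparisons, no member reached 2-fold within strata, beside 1.83% of 9661 genes at least 2-fold higher with Tcf7, 0.849% higher with Gzmk, 0.932% lower with Havcr2 and 2.37% lower with Mki67.

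After thinning to 500 UMIs, which equalizes depth but not the library, 65.4% of CD8+ T cells with Gzmk had a GIMAP UMI against 44.2% without (97.5 and 86.8% unthinned). The pairs of shares were 62.1 and 49.3% for Tcf7 (97.6 and 89.1% unthinned), 39.8 and 53.2% for Havcr2 (91.7 and 89.6%), and 37.4 and 53.8% for Mki67 (92.1 and 89.5%). Equal depth turned the direction for Havcr2 and Mki67, whose cells were deeper.

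**Figure D4:**
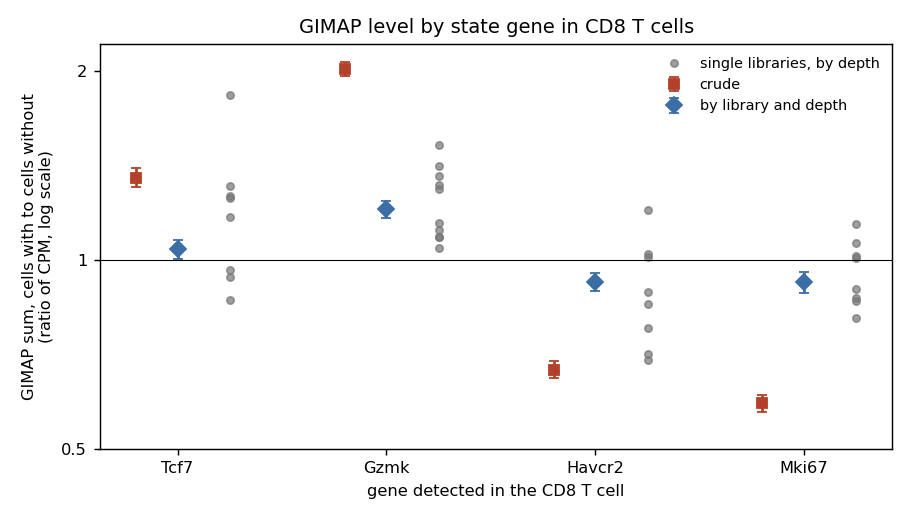
Ratio of the summed GIMAP CPM in CD8+ T cells with a UMI of Tcf7, Gzmk, Havcr2 or Mki67 to those without (log scale), as the crude pooled ratio and the ratio within strata of library and depth (both with 95% intervals for counting error), and as 1 grey point, held within bins of depth, per library with 20 cells of each kind. For Gzmk all 10 library points lie above 1 (1.05 to 1.52), and for the other 3 genes they lie on both sides of 1.

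The members shared the direction with Gzmk but not its size. All 8 ratios within strata were above 1, with a median log2 ratio of 0.27 against 0.02 over all genes. Gimap7 had the largest, 1.45 (1.31 to 1.61; higher in 9 of 10 libraries, 271 against 103 CPM in the pool), then Gimap6 with 1.30 (9 of 10; 389 against 152 CPM), Gimap9 with 1.24, Gimap8 and Gimap1 with 1.20 each, Gimap3 with 1.17 and Gimap4 with 1.14. Gimap5 was at 1.03 (0.925 to 1.15; 7 of 10). Without library 8 all 8 stayed above 1, from 1.05 (Gimap5) to 1.37 (Gimap9), with Gimap7 at 1.35. For Mki67 the members split. Gimap9 (1.20) and Gimap1 (1.11) were above 1 within strata and in 6 of 8 libraries each, while the other 6 lay between 0.832 (Gimap5) and 0.971 (Gimap8). Without library 8, Gimap9 (1.34) and Gimap1 (1.10) stayed above 1, Gimap8 was at 1.00 and the other 5 lay between 0.865 (Gimap3) and 0.932 (Gimap7). For Havcr2, Gimap9 was lowest at 0.773 and lower in 7 of 8 libraries, and Gimap7 alone was above 1 (1.04). For Tcf7, Gimap6 was highest at 1.16 (7 of 8 libraries) and Gimap7 lowest at 0.859 (higher in 3 of 8).

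The cells were also divided into disjoint states. Pooled family CPM was 2937 in the 594 Gzmk+ cells (Gzmk without Tcf7, Havcr2 and Mki67), 2505 in the 297 Tcf7+ cells, 1417 in the 461 Havcr2+ cells, 1109 in the 668 cycling cells with Mki67, and 1407 in the 1474 cells with none of the 4 genes. By library, Gzmk+ cells ranged from 1043 CPM in library 6 to 3684 in library 8 (median 2094 over 9), Havcr2+ cells from 583 to 3276 (median 1002 over 8) and cycling cells from 575 to 2243 (median 942 over 8), with library 8 the highest for each. Within strata, Gzmk+ cells were above cells with none of the 4 genes by 1.21-fold in 9 of 9 libraries, above cycling cells by 1.25-fold in 8 of 8 and above Havcr2+ cells by 1.16-fold in 7 of 8 (1.34 without library 8). Tcf7+ cells were above cells with none of the 4 by 1.22-fold (5 of 5 libraries) and above cycling cells by 1.19-fold (4 of 4). They were above Havcr2+ cells by 1.09-fold (3 of 4 libraries), a ratio that was 1.42 without library 8, 1.80 in libraries 1 to 6 and 0.955 in libraries 7 to 12. They were at 0.945 of Gzmk+ cells, a direction that turned without library 8. Havcr2+ cells, cycling cells and cells with none of the 4 genes had ratios of 0.987 to 1.02 to each other (0.943 to 0.966 without library 8). The libraries pointed both ways for each pair. They gave 0.725 to 1.18 for Havcr2+ to cycling cells, 0.813 to 1.275 for Havcr2+ cells to those with none, and 0.860 to 1.18 for cycling cells to those with none. The share of genes at least 2-fold higher was 0.815% in Gzmk+ against Havcr2+ cells and 1.54% in Gzmk+ against cycling cells, and 0 members were among them. Summed over 6 macrophage markers, cells with none of the 4 genes had 2352 CPM and the other states 1114 to 1496. The 6 dendritic cell markers (H2-Aa, H2-Ab1, Cd74, Ccr7, Batf3 and Ccl22) summed to 4164 CPM in Havcr2+ cells, 2379 in cycling cells, 2247 in cells with none of the 4, 1587 in Tcf7+ and 1233 in Gzmk+ cells. Most of this sum came from the MHC class II genes H2-Aa and H2-Ab1 and from Cd74, their invariant chain, while Flt3 and Zbtb46, which define dendritic cells, had 1.87 to 9.36 and 2.80 to 6.61 CPM over the states. Flt3 was highest in Havcr2+ and lowest in Gzmk+ cells. Gzmk+ cells had the highest sums of T cell markers (4166 CPM against 2889 to 3398 in the other states) and of NK markers (1646 against 870 to 1158 CPM). The part of these transcripts in the result was not tested.

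Beside the family, 10 genes of T cell quiescence and recirculation, among them Klf2, S1pr1, Ccr7, Il7r, Lef1, Satb1, Bcl2, Foxo1 and Btg1, were followed through the same comparisons. They were higher with Tcf7 by more than the members were. Within strata, 10 of 10 were higher in cells with Tcf7, 5 of them at least 2-fold, including Klf2 (2.53), S1pr1 (2.41), Ccr7 (2.38) and Il7r (2.09), with a median log2 ratio of 0.97 against 0.04 for the members. Over all 9661 genes 1.83% were at least 2-fold higher with Tcf7, and the median ratio was 0.996. Klf2, a factor that drives S1pr1, had 297 CPM in cells with Tcf7 and 89.0 in cells without. With Gzmk, 3 of 10 were above 1, and Ccr7, the receptor for entry into lymph nodes, was at 0.471 (42.1 against 158 CPM), while all 8 GIMAP members were above 1. Ccr7 is also a marker of dendritic cells, which had 1015 CPM of it against 116 in CD8+ T cells. The sum of dendritic cell markers above, which includes Ccr7, was likewise lowest in Gzmk+ cells. Of the single markers, Ccl22 was lower in cycling cells (26.4 CPM) than in Gzmk+ cells (28.4 CPM). The part of dendritic cell transcripts in the value of Ccr7 was not tested. With Havcr2, 0 of 10 were above 1 (median log2 ratio -0.50, members -0.11, all genes -0.01), and with Mki67 only Foxo1 was (-0.36, members -0.17, all genes 0.02). The gap between the medians was widest for Tcf7, and for Gzmk the medians had opposite signs (-0.26, members 0.27, all genes 0.02). These medians include library 8. Without library 8 the members' ratios for Tcf7 ran from 0.904 (Gimap7) to 1.42 (Gimap6), and the 10 genes are not given without it.

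The genes with the pattern most like the summed family were named by Pearson's r of log2(CPM + 1). Over 61 sums of class and library, the leading ones were Ablim1 (0.957), Ikzf3 (0.945), Ptprcap (0.940), Sh2d2a (0.930) and Lax1 (0.919), followed by Cers4, Bcl2, Faah, Jakmip1 and Cd2 (0.897 to 0.901). Over 40 sums of CD8+ state and library they were Ms4a6b (0.957), Ms4a4b (0.934), Selplg (0.923), Saraf (0.912) and Ccl5 (0.891), followed by Gm8369, 9930111J21Rik2, Shisa5, Gm26740 and Grap2 (0.850 to 0.888). The members themselves reached 0.941 to 0.977 over the classes and 0.815 (Gimap8) to 0.976 (Gimap6) over the CD8+ sums, each being a part of the sum it is compared with. Ccr7 was at -0.41 over the CD8+ sums. Points of 1 library share their cell preparation and depth, and the 2 lists had 0 genes in common.

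The libraries fell into 2 sets by transcripts other than the family. Libraries 1 to 6 held Y-linked transcripts (128 to 209 CPM) and libraries 7 to 12 held Xist (658 to 870 CPM). The methods of the study describe female mice. Libraries 1 to 3, 4 to 6, 7 to 9 and 10 to 12 held 29778, 73243, 23715 and 13903 barcodes, of which 27709, 68273, 20674 and 12256 passed the limits. The methods give cell totals for the groups after initial quality control. Taken in the order of the labels, these totals lie near the unfiltered barcode sums. They lie above the numbers that passed the limits here, so the cells kept here are not the study's set. A likeness of totals is no label, so no library was assigned to a group. Under that reading the sets would be the mice treated for 7 and for 16 days, and treatment time, animals and preparation cannot be told apart between the sets. In CD8+ T cells, family CPM was 1136, 1516, 916, 836 and 758 in libraries 1, 2, 3, 5 and 6 (median 916), and 1945, 3172, 1684, 1656, 1583 and 2020 in libraries 7 to 12 (median 1814). The 2 sets did not overlap, with 1516 as the highest of the first and 1583 as the lowest of the second, and their medians differed 1.98-fold.

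Among the members, Gimap1, Gimap3, Gimap6 and Gimap9 did not overlap between the sets, the smallest gap being that of Gimap6 (79.7 to 221.1 CPM against 221.5 to 530 CPM). The other 4 overlapped. Gimap6 also overlapped once mitochondrial and ribosomal protein genes left the total (highest of the first set 343 CPM, lowest of the second 334), Gimap1 overlapped in cells of 2000 to 8000 UMIs (213 and 202 CPM), and Gimap3 in cells without Mki67 and Gzmk (353 and 329 CPM). In cells with none of the 4 state genes, Gimap9 was the single member without overlap, beside 0.839% of 6794 genes. Of all 9661 genes in CD8+ T cells, 1.07% were higher in each library with Xist than in every library with Y-linked transcripts. That share was 0.932% without mitochondrial and ribosomal protein genes in the total. It was 1.12% in cells of 2000 to 8000 UMIs and 0.772% in cells without Mki67 and Gzmk. The family also differed within states, by 1.53-fold in Gzmk+, 1.48-fold in Havcr2+ and 2.05-fold in cycling cells, without overlap in each of these. These 3 values rest on 4, 3 and 3 libraries with Xist, and the share of all genes without overlap was higher there than in all CD8+ T cells, at 1.95, 3.07 and 4.05%. Of the members, 1 (Gimap6), 8 and 5 did not overlap in these states. The ratio was 1.89 in cells with none of the 4 genes, 2.01 in cells of 2000 to 8000 UMIs and 1.26 in CD4+ T cells, with overlap in all 3. Tcf7+ cells overlapped too, with 1323 to 2338 CPM in libraries 2, 5 and 6 against 1975 and 3253 CPM in libraries 10 and 8. In macrophages the medians were 3.52 and 2.96 CPM, again with overlap.

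Other values moved with these sets. The median mitochondrial percent of CD8+ T cells, a sign of RNA quality, was 4.25 to 4.90% in libraries with Y-linked transcripts and 3.57 to 4.13% in those with Xist, without overlap. The 6 macrophage markers summed to 865 to 4862 CPM in CD8+ T cells of libraries with Y-linked transcripts (median 1419) and 611 to 1247 in those with Xist (median 663). The share of CD8+ T cells with Gzmk was 9.13 to 33.4% (median 16.0%) and 11.1 to 83.3% (median 43.2%). T cell markers summed to 2096 to 3256 and 2930 to 4599 CPM, and GIMAP UMIs per UMI of these markers were 0.281 to 0.485 (median 0.361) and 0.484 to 0.690 (median 0.555). The part of each in the family's level was not tested. The ratio for Gzmk within strata was 1.24 in the first set and 1.19 in the second. That for Tcf7 was 1.30 and 0.975, so of these 2 genes only Gzmk was above 1 in both. Those for Havcr2 (0.839 and 0.969) and Mki67 (0.936 and 0.911) were below 1 in both sets.

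**Figure D5:**
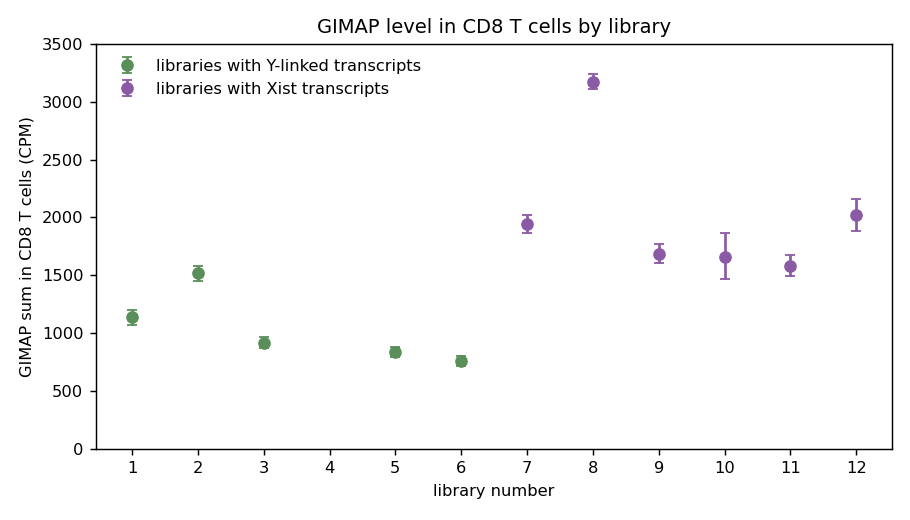
Summed GIMAP CPM in CD8+ T cells of each library (points, with exact Poisson 95% intervals for counting error), with the colour showing whether the library holds Y-linked transcripts or Xist. Libraries with Y-linked transcripts lie between 758 and 1516 and those with Xist between 1583 and 3172, and library 4 is left out with 8 cells.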

How the data were processed

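The authors prepared 10x Genomics 3' libraries and deposited 1 matrix of UMI counts, without normalization. The submitters' processing notes name Cell Ranger 2.1.1, Seurat and mm10, and the matrix header names software version 3.0.2, so which version made the matrix is unsure. No source used here maps barcodes to mice.

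The study's limits were applied: over 200 and under 5000 genes per cell, and no more than 10% of UMIs from mitochondrial genes. They kept fewer cells than the methods of the study report. Members, lists and gates were chosen with earlier results of these data known. A T cell had at least 2 UMIs of Cd3d, Cd3e and Cd3g, 0 of a list of 4 B cell genes that includes Cd79a, Cd79b and Ms4a1, and at most 1 macrophage and 1 neutrophil UMI. Of T cells, CD8+ cells had Cd8a or Cd8b1 without Cd4 and Foxp3, CD4+ cells had Cd4 without the others, and Foxp3+ cells had Foxp3 without Cd8a and Cd8b1. NK cells were gated on Ncr1 and Klrb1c, macrophages or monocytes on a list that includes Csf1r, Adgre1 and Fcgr1, neutrophils on Csf3r, Cxcr2 and Retnlg, and dendritic cells on Flt3 and Zbtb46, B cells on the 4 B cell genes above, each with at least 2 UMIs, 0 UMIs of the other lymphoid lists and the same limits on macrophage and neutrophil UMIs. No doublet caller was run. Over all libraries, 1877 barcode sequences occurred in more than 1 library (2.93% of the cells kept, and 4 sequences among T cells).

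UMIs were summed as CPM. Ratios within strata are Mantel-Haenszel rate ratios over library and bins of total UMIs that double from 500, with 51 strata for Gzmk. Intervals are at 95% and cover counting error only. Those of ratios within strata use a normal approximation on the log scale, and those of levels, shares and pooled ratios are exact. A gene counted as called at 2-fold or more, over genes with at least 50 UMIs. The named genes are the 8 members, the 10 quiescence genes and the 10 genes most like the sum. Some genes of these lists and gates entered the counts and are not reported here by name. Scripts were tested on simulated data. Tables were handled with pandas 2.3.3 and numpy 2.4.6, intervals computed with scipy 1.17.1 and figures drawn with matplotlib 3.10.9, under Python 3.11.15. Alternatives changed the gates, limits, totals, depth handling and libraries.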

Additional observations from a re-analysis of the deposited data

Results flagged for a closer look

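The following values stand out because they lie in barcodes outside the classes compared, each above the 3 counts that a count of 0 allows. T cells with no UMI of Cd4, Cd8a, Cd8b1 or Foxp3 (2102 cells, median 1879 UMIs) had 1951.5 GIMAP CPM, and 84.6% of them carried a GIMAP UMI. T cells with both Cd4 and Cd8a or Cd8b1 (124 cells) had 1610 CPM. Barcodes with T cell and macrophage UMIs together (3238) had 492 CPM. T cell barcodes over the mitochondrial limit (323) had 1439 CPM. Cells with at least 2 UMIs of the endothelial genes Cdh5 and Kdr (703 cells, median 11276 UMIs) had 14.9 CPM, and 9.96% of them carried a GIMAP UMI.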

How the results depend on the processing

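The family in T against myeloid cells kept its direction under all 10 alternatives, with ratios of 67.0 without the limit on lymphoid UMIs in myeloid cells, 237 and 297 at gates of 1 and 3 UMIs, 302 at a mitochondrial limit of 5%, 316 without mitochondrial and ribosomal protein genes in the total, 174 as a mean of counts per 10000, 168 as UMIs per cell, 310 without the deepest 10% of cells and 173 within strata. CD8+ T against NK cells moved to 1.03 (counts per 10000) and 1.09 (strata). Against B cells the ratio moved to 3.28 (gate of 1 UMI) and 6.19 (limit of 5%, with 59 B cells of median 2106 UMIs). It was 1.91 (counts per 10000), 4.34 (UMIs per cell) and 1.77 (without Jchain and deep cells). CD4+ against CD8+ T cells moved to 1.16, 1.33, 1.36 and 1.32 (total without mitochondrial and ribosomal genes, counts per 10000, UMIs per cell, without the deepest cells) and turned to 0.907 within strata. Foxp3+ against CD8+ T cells moved to 1.63 (UMIs per cell) and turned to 0.966 (total), 0.880 (deepest cells) and 0.874 (strata). The cause of these turns was not tested.

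For Tcf7, Gzmk, Havcr2 and Mki67, the pooled ratios were 1.35, 2.02, 0.669 and 0.591, the ratios of shares thinned to 500 UMIs 1.26, 1.48, 0.748 and 0.696, and those thinned to 1000 UMIs 1.20, 1.32, 0.830 and 0.796. Tcf7 moved to 1.10 (counts per 10000) and 1.08 (deepest cells), Gzmk to 1.16 (total), Havcr2 to 0.955 (no macrophage or neutrophil UMI), 0.880 (counts per 10000) and 0.968 (UMIs per cell), and Mki67 to 0.877 (total) and 0.994 (UMIs per cell). Members called against NK cells numbered 2 at a gate of 3 UMIs, and against B cells 8 at the limit of 5%, where 59 B cells remained. The share of all genes called was not computed at these settings, so these counts have no background beside them. Gimap3 and Gimap5 summed had a ratio of 1.27 to NK cells. This lies between their own ratios (1.74 and 0.767) and cannot test Gimap5 alone.

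With each library left out in turn, the ratios were 196 to 434 (T against myeloid), 0.927 to 1.29 (NK), 1.67 to 2.28 (B), 1.06 to 1.31 (CD4+), 0.808 to 1.21 (Foxp3+), 1.03 to 1.17 (Tcf7), 1.17 to 1.23 (Gzmk), 0.851 to 0.952 (Havcr2) and 0.901 to 0.948 (Mki67). Members called numbered 0 to 1 against NK cells and 4 to 5 against B cells, without a share of all genes computed for these sets. Library 8 gave the lowest value for the first 5 and for Gzmk and Havcr2. Between the library sets, the ratio of medians was 1.26 in CD4+ T cells and 1.48 to 2.05 under the other 10 alternatives. The strata of class ratios, the library sets, the B cells without Jchain and the members' calls were chosen after seeing the data.

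With a minimum of 10 or of 200 UMIs in place of 50, the share of genes past 2-fold was 16.8 or 6.17% (NK), 6.48 or 2.09% (CD4+), 5.23 or 0.588% (Tcf7), 2.87 or 0.449% (Gzmk), 3.88 or 0.155% (Havcr2) and 6.26 or 0.851% (Mki67). No paired analysis was possible because the library numbers are not tied to the mice or to their replicate numbers. The number of cells limits Foxp3+ T cells (34 cells) and NK cells (2 libraries of 20 cells) most. B cells are limited by depth (median 1317 UMIs) and by their median mitochondrial percent (6.73%, against 4.23% in CD8+ T cells). Ratios of members without library 8 and shares by library were also chosen after seeing the data.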
